A study of Mus musculus with 18 samples.

Results

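Adenylyl cyclases make cyclic AMP (cAMP) and phosphodiesterases break it down. The 10 genes described here are 7 cyclases, Adcy3, Adcy4, Adcy5, Adcy6, Adcy7, Adcy9 and Adcy10, and 3 phosphodiesterases, Pde3b, Pde4b and Pde4d. They were chosen by name, with earlier results of these data known, from a table of 54347 gene rows, of which 18728 had enough counts to be tested. All 10 were among the tested genes. They were measured by polyA RNA sequencing in 3 fat depots of 6 mice, which gave 18 libraries. The depots are the interscapular brown fat (iBAT), the white fat of the groin (inguinal, iWAT) and that beside the epididymis (epididymal, eWAT). The mice were 12 weeks old and fed chow, and all belonged to the C57BL/6N-ΔGm15551 strain, in which CRISPR/Cas9 removed exon 1 of the long noncoding RNA gene Gm15551 and which had been crossed back to wild type animals. Of these mice, 3 were homozygous knockouts (ko) and 3 were wild type (wt), and each mouse gave all 3 tissues. The deletion was not restricted to a tissue.

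In adipocytes, noradrenaline binds β-adrenergic receptors, which act through the stimulatory G protein on membrane-bound cyclases. The cAMP formed activates protein kinase A, which drives lipolysis in white fat and thermogenesis in brown fat. Inhibitory G proteins and phosphodiesterases hold cAMP down, and insulin lowers it by activating the Pde3b product. Cyclase isoforms differ in how they are regulated: the Adcy3 product responds to calcium and calmodulin, those of Adcy5 and Adcy6 are inhibited by calcium and by inhibitory G proteins, those of Adcy4 and Adcy7 can be stimulated by G protein βγ subunits, the Adcy9 product is poorly responsive to forskolin, and Adcy10 encodes the soluble, bicarbonate-activated cyclase known from sperm.

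Library totals ranged from 14997901 to 34389586 counts. Ucp1, the uncoupling protein of brown adipocytes, was at 3422 to 7994 CPM in iBAT, 0.0989 to 55.3 CPM in iWAT and 0 to 1.34 CPM in eWAT. CPM is a gene's count relative to the total count of its library, after the totals were scaled by the trimmed mean of M values (TMM). Gm15551 had 40 to 316 counts in the 9 wt libraries and 0 to 4 in the 9 ko libraries. Marker genes set 4 white fat libraries apart. In iWAT wt 3 and iWAT ko 2, all 6 lymphocyte and all 5 macrophage markers were above the other 4 iWAT libraries, with summed lymphocyte levels of 651 and 284 CPM against 2.59 to 15.4 CPM and summed macrophage levels of 1345 to 1437 CPM against 232 to 542 CPM. In the same libraries all 5 adipocyte markers were below the others, with sums of 6945 to 9788 CPM against 17669 to 19767 CPM. All 5 skeletal muscle markers were highest in iWAT ko 1, at 3258 CPM in sum against 1.90 to 4.42 CPM. All 3 epididymis and all 5 testis markers were highest in eWAT ko 3 (sums of 4819 and 86.3 CPM), where all 5 adipocyte markers were lowest (8452 CPM in sum against 12890 to 19632 CPM). One more white fat library, eWAT ko 2, had the highest levels of all 4 smooth muscle markers (832 CPM in sum against 140 to 284 CPM in the other eWAT libraries). When it was left out beside the 4, the number of the 10 genes called was 7, 7 and 2 in the 3 tissue comparisons, as it was without the 4 alone, while 44.3%, 53.95% and 7.81% of the 19899 genes tested were called.

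The windows before the start sites are shown for the 5 genes whose windows carry a searched motif and that differ in tissue pattern in the results that follow. RefSeq promoter entries on GRCm38.p6 were matched for 8 of the 10 genes and gave 14 windows, since Adcy3, Adcy7 and Pde4b have several annotated starts. Each sequence is the 250 bases before a start, 5′ to 3′ on the gene's strand. Capitals mark GGGCGG, the GC box bound by Sp1 family factors, and TGACG, the shorter form of the cAMP response element TGACGTCA, each on either strand, so that the reverse complements CCGCCC and CGTCA are also in capitals. TGACG is contained in TGACGTCA.
Adcy3 (chr12:4133147-4133396, plus strand): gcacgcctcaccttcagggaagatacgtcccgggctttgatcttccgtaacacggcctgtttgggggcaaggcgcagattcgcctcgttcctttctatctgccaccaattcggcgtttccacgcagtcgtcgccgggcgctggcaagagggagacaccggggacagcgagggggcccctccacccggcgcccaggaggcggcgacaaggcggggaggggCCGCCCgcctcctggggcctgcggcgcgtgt
Adcy5 (chr16:35154614-35154863, plus strand): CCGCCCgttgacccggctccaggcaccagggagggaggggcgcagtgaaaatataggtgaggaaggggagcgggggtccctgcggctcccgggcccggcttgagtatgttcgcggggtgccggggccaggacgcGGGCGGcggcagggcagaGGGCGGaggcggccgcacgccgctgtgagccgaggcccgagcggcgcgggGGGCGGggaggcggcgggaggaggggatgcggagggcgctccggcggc
Adcy9 (chr16:4420499-4420748, minus strand): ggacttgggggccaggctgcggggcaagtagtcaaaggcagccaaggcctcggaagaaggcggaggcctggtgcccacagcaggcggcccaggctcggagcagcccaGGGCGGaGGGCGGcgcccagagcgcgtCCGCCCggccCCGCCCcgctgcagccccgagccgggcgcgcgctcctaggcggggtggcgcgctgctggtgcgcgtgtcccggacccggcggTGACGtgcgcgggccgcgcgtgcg
Adcy7 (chr8:88282742-88282991, plus strand): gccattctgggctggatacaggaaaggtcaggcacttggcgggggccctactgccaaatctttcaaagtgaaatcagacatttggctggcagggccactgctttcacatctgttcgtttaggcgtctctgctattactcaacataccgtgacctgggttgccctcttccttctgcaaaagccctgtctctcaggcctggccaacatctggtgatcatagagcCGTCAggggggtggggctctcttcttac
Pde4b (chr4:102421305-102421554, plus strand): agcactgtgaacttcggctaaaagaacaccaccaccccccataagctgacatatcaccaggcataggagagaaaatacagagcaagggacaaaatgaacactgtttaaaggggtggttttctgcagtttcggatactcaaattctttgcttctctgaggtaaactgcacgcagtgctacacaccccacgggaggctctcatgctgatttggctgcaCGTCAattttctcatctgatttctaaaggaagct
The full element TGACGTCA was in 0 of the 14 windows and in 1.55% of all 32851 windows of this length. TGACG was in 3 of the 14, or 21.4%, against 17.8% of all windows, and these are the Adcy9, Adcy7 and Pde4b windows printed above. GGGCGG was in 4 of the 14, or 28.6%, against 32.7% of all windows. It occurred 4 times each in the Adcy5 and Adcy9 windows and 1 time each in the Adcy3 window and in an Adcy7 window that is not printed (chr8:88293954-88294203, plus strand). The Adcy5 and Adcy9 windows were 78.0% and 78.8% G and C, against a median of 52.4% over all windows, whereas the Pde4b window was at 46.0%. The printed Adcy3, Adcy7 and Pde4b windows lie inside the span that GENCODE gives these genes, ahead of internal starts. The first 50 transcribed bases of the Adcy5 start and of the printed Adcy7 start are not in GENCODE M21, whereas those of the other printed windows are. Whether motifs or base composition have a part in the tissue differences given next was not tested.

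The first question was how the 3 tissues differ in these genes. Against iWAT, 5 of the 10 genes were higher in iBAT and 2 were lower, where 24.0% and 30.3% of all tested genes were called in these directions. Those higher were Adcy3, Adcy6, Adcy9, Adcy10 and Pde4d, and those lower were Adcy5 and Adcy7. Against eWAT, 5 were again higher in iBAT and 2 lower, where 24.4% and 30.2% of all genes were called. The genes were the same, but both comparisons use the same iBAT libraries. The median log2 difference of the 10 genes was 0.47 against iWAT and 0.42 against eWAT, beside −0.14 and −0.17 over all tested genes. Adjusted p-values are from edgeR's quasi-likelihood test with Benjamini-Hochberg adjustment over the 18728 genes. The counts turn with the scaling. With library totals in place of TMM, the median over all tested genes moved to −0.95 against iWAT and −1.04 against eWAT, with 1438 genes called higher and 12804 lower in iBAT than in iWAT and 1579 higher and 13159 lower than in eWAT. On that scaling Adcy3, Adcy9, Adcy10 and Pde4d were still called higher in iBAT and Adcy5 and Adcy7 lower in both comparisons, while Adcy6 was not called and Adcy4, Pde3b and Pde4b were called lower. The values that follow are with TMM. The libraries are whole tissue, in which fewer cells of a type and less RNA per cell cannot be told apart.

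**Figure D1:**
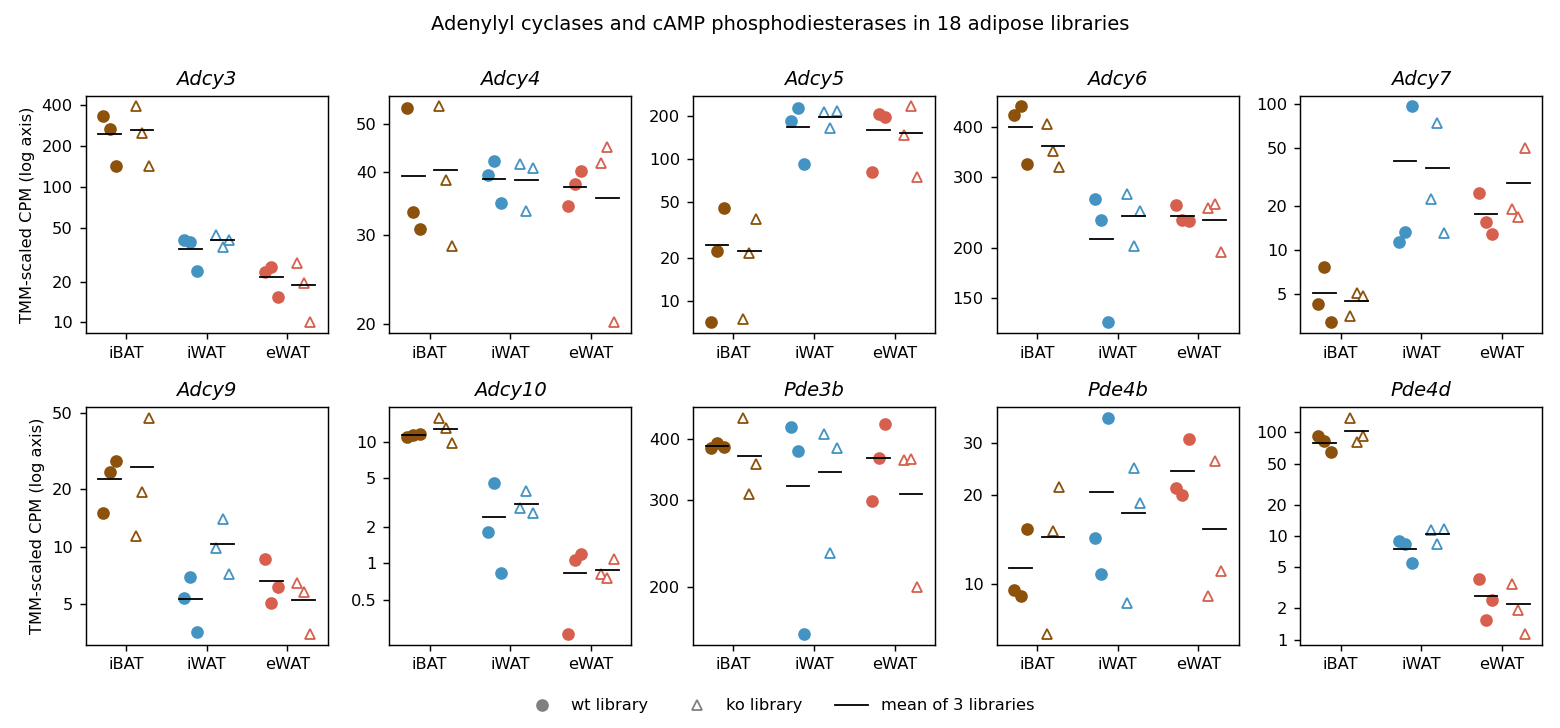
TMM-scaled CPM (log axis, own scale for each gene) of the 10 genes in the 18 libraries, by tissue. Filled circles are wt libraries, open triangles ko libraries and black lines the means of 3 libraries. Adcy3, Adcy10 and Pde4d lie above both white tissues in iBAT without overlap, and Adcy5 and Adcy7 lie below.

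Pde4d showed the largest tissue difference of the 10 genes. It encodes a cAMP-specific phosphodiesterase of the rolipram-sensitive PDE4 family (ENSMUSG00000021699.17, chr13:108449948-109953461, plus strand, GRCm38). It was at 65.3 to 139 CPM in iBAT (median 86.7), 5.44 to 11.8 CPM in iWAT (median 8.66) and 1.14 to 3.87 CPM in eWAT (median 2.18). The ranges of the 3 tissues did not overlap. Its level in iBAT was 10.2-fold that in iWAT (log2 3.35 ± 0.27 SE, adjusted p = 3.59e-08) and 37.6-fold that in eWAT (log2 5.23 ± 0.30, adjusted p = 7.38e-10). Within a mouse the iBAT level was 7.88 to 12.3 times the iWAT level and 23.6 to 81.5 times the eWAT level. In all 6 mice the order was iBAT, iWAT, eWAT.

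Adcy3 had the largest brown to white difference among the membrane-bound cyclases that were higher in iBAT (ENSMUSG00000020654.15, chr12:4133103-4213525, plus strand). It was at 143 to 391 CPM in iBAT (median 256), 23.9 to 44.2 CPM in iWAT (median 39.97) and 10.001 to 27.5 CPM in eWAT (median 21.5). Every iBAT library was above every white fat library, while iWAT and eWAT overlapped. The level in iBAT was 6.76-fold that in iWAT (log2 2.76 ± 0.29 SE, adjusted p = 6.14e-07) and 12.5-fold that in eWAT (log2 3.64 ± 0.30, adjusted p = 2.85e-08). Within a mouse the ratio ran from 3.53 to 8.85 against iWAT and from 9.26 to 14.3 against eWAT.

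Adcy10, the soluble cyclase, was low and was highest in iBAT (ENSMUSG00000026567.16, chr1:165485183-165576774, plus strand). It was at 9.66 to 15.7 CPM in iBAT, 0.824 to 4.56 CPM in iWAT and 0.264 to 1.19 CPM in eWAT. The lowest of these values rests on 6 counts. Its iBAT level was 4.39-fold that in iWAT (log2 2.13 ± 0.36 SE, adjusted p = 9.77e-05) and 13.9-fold that in eWAT (log2 3.80 ± 0.39, adjusted p = 3.76e-07). Both differences held in 6 of 6 mice, and the iBAT range lay above both white ranges, whereas the iWAT and eWAT ranges overlapped, with iWAT the higher in 5 of 6 mice.

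Adcy9 was also higher in iBAT, with a wide spread (ENSMUSG00000005580.11, chr16:4287529-4420498, minus strand). It was at 11.4 to 47.2 CPM in iBAT (median 21.97), 3.59 to 13.9 CPM in iWAT (median 7.10) and 3.52 to 8.66 CPM in eWAT (median 5.99). Its level in iBAT was 3.18-fold that in iWAT (log2 1.67 ± 0.35 SE, adjusted p = 0.000652) and 4.01-fold that in eWAT (log2 2.002 ± 0.35, adjusted p = 0.000126). The iBAT and iWAT ranges overlapped, although the iBAT library was the higher in each of the 6 mice. The smallest within-mouse ratio to iWAT was 1.16 and the largest 7.79. They came from mice ko 1 and wt 3, whose iWAT libraries were both among the 4 set apart by their markers.

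Adcy6 was abundant in all 3 tissues and differed the least of the genes that were called against iBAT (ENSMUSG00000022994.9, chr15:98589973-98610076, minus strand). It was at 319 to 451 CPM in iBAT, 130.4 to 273 CPM in iWAT and 195 to 257 CPM in eWAT. Its level in iBAT was 1.69-fold that in iWAT (log2 0.75 ± 0.16 SE, adjusted p = 0.000703) and 1.60-fold that in eWAT (log2 0.68 ± 0.16, adjusted p = 0.00161). The iBAT range did not overlap either white range, and 6 of 6 mice showed the direction in both comparisons. With library totals in place of TMM the sign turned and the call was lost, at log2 −0.04 against iWAT (adjusted p = 0.784) and −0.20 against eWAT (adjusted p = 0.121), both above the medians of all genes on that scaling.

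**Figure D2:**
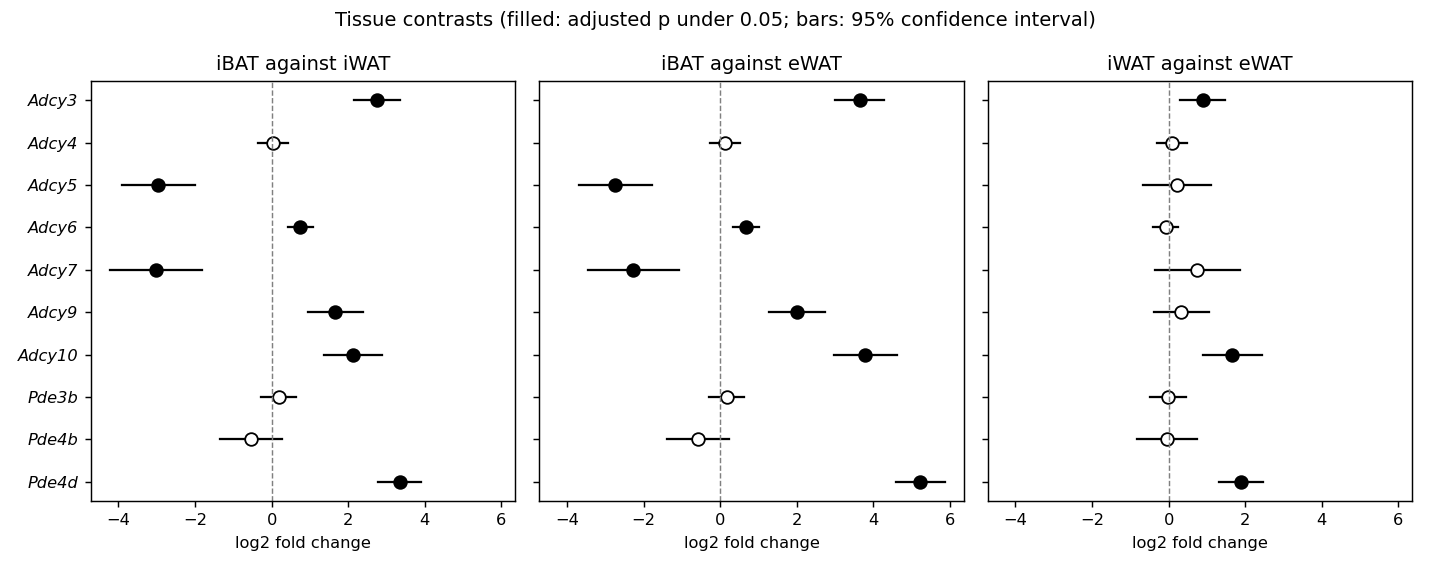
Log2 fold changes (x axis) of the 10 genes between tissues, 1 panel per comparison, from edgeR's additive model of tissue and genotype over 18 libraries. Bars are 95% confidence intervals and filled points have an adjusted p under 0.05. In the iBAT panels 5 called genes lie right of 0 and 2 lie left of it, although Adcy6 is at −0.04 and −0.20 when library totals replace TMM, and in the iWAT against eWAT panel 3 genes lie right.

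Adcy5 ran opposite to Adcy3 (ENSMUSG00000022840.9, chr16:35154877-35305738, plus strand). It was at 7.06 to 44.9 CPM in iBAT (median 22.1), 92.9 to 228 CPM in iWAT (median 200.1) and 75.4 to 235 CPM in eWAT (median 173). No iBAT library reached the lowest white fat library. Its level in iBAT was 7.79-fold lower than in iWAT (log2 −2.96 ± 0.45 SE, adjusted p = 4.19e-05) and 6.66-fold lower than in eWAT (log2 −2.74 ± 0.45, adjusted p = 7.11e-05). The size of the difference varied between mice, from 2.07 to 28.4-fold against iWAT and from 1.98 to 19.8-fold against eWAT. The smallest values came from iWAT wt 3 and eWAT ko 3, which were among the 4 libraries set apart by their markers. The part of the carried-along tissue in these ratios was not tested.

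Adcy7 was the other cyclase lower in iBAT, and its white fat values moved with the libraries that carried other tissue (ENSMUSG00000031659.13, chr8:88272403-88329962, plus strand). It was at 3.17 to 7.65 CPM in the 6 iBAT libraries. In iWAT it was at 96.5 CPM in wt 3 and 74.0 CPM in ko 2, the 2 libraries with high lymphocyte and macrophage markers, at 22.5 CPM in ko 1 and at 11.4 to 13.3 CPM in the remaining 3. In eWAT it was at 50.3 CPM in ko 3, the library with epididymis and testis markers, and at 12.8 to 24.5 CPM in the other 5. Over all libraries it was 8.09-fold lower in iBAT than in iWAT (log2 −3.02 ± 0.57 SE, adjusted p = 0.000296) and 4.80-fold lower than in eWAT (log2 −2.26 ± 0.56, adjusted p = 0.00258). Without the 4 libraries the log2 differences were −1.41 and −1.90, and both were still called. The difference between iWAT and eWAT, 0.75 over all libraries and not called, became −0.49 without them (adjusted p = 0.253).

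Adcy4 and Pde3b, by contrast, passed no tissue test with TMM. Adcy4 (ENSMUSG00000022220.14, chr14:55769057-55784095, minus strand) was at 28.6 to 54.1 CPM in iBAT, 33.6 to 42.1 CPM in iWAT and 20.2 to 44.9 CPM in eWAT. Its log2 differences were 0.04 for iBAT against iWAT (95% confidence interval −0.36 to 0.44) and 0.13 for iBAT against eWAT (−0.27 to 0.52). Pde3b (ENSMUSG00000030671.9, chr7:114415281-114539251, plus strand) was at 309 to 443 CPM in iBAT, 161 to 424 CPM in iWAT and 200.2 to 430.3 CPM in eWAT. Its intervals were −0.27 to 0.65 against iWAT and −0.29 to 0.63 against eWAT. With library totals both genes were called lower in iBAT, Adcy4 by log2 −0.78 and −0.75 (adjusted p = 0.000219 and 0.000305 in edgeR) and Pde3b by −0.58 and −0.69 (adjusted p = 0.00534 and 0.00164). The lowest iWAT values of Pde3b were in wt 3 (161 CPM) and ko 2 (235 CPM) and the lowest eWAT value was in ko 3 (200.2 CPM), the libraries in which the adipocyte markers were also lowest. The part of the carried-along tissue in these values was not tested.

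Pde4b encodes another PDE4 enzyme (ENSMUSG00000028525.16, chr4:102087543-102607259, plus strand) and did not follow Pde4d. It was at 6.81 to 21.3 CPM in iBAT, 8.66 to 36.4 CPM in iWAT and 9.10 to 30.9 CPM in eWAT. These ranges overlapped, with log2 differences of −0.54 ± 0.38 SE against iWAT (adjusted p = 0.242) and −0.58 ± 0.38 against eWAT (adjusted p = 0.205). It was lower in iBAT in 5 of the 6 mice in each comparison. With a block for the mouse, since the tissues come from the same animals, the difference from eWAT was −0.61 and passed the test (adjusted p = 0.0471 in edgeR). With library totals the differences were −1.39 and −1.41 and both passed (adjusted p = 0.00788 and 0.00716).

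Between the white tissues 3 of the 10 genes were higher in iWAT and 0 were lower, where 5.70% and 4.50% of all tested genes were called. The median log2 difference was 0.28 for the 10 genes and 0.01 over all tested genes. Pde4d was 3.70-fold higher in iWAT than in eWAT (log2 1.89 ± 0.27 SE, adjusted p = 0.000277), with 6 of 6 mice in that direction and no overlap. Adcy10 was 3.17-fold higher (log2 1.66 ± 0.36, adjusted p = 0.00886) in 5 of 6 mice, and lost the call without mouse ko 2 (adjusted p = 0.0680). Adcy3 was 1.85-fold higher (log2 0.89 ± 0.27, adjusted p = 0.0486) in 6 of 6 mice. The Adcy3 call held in 6 of 18 alternative settings. It was lost when any of the 6 mice was left out (adjusted p from 0.0521 to 0.155) and without the 4 libraries (0.0845), and with the mouse as a block it stood at log2 0.95 (adjusted p = 0.00414). The 7 other genes did not pass, with log2 differences between −0.08 for Adcy6 and 0.75 for Adcy7.

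Levels can be compared between genes only per length, as counts per kilobase of exon scaled to the same total in each library (TPM-like units). On that scale Adcy6 was the leading cyclase in all 3 tissues, at 74.0 ± 9.09 (SD, n = 6) in iBAT, 105 ± 19.3 in iWAT and 125 ± 16.5 in eWAT. The gene next to it changed with the tissue. In iBAT it was Adcy3, at 52.6 ± 17.5, with a range that overlapped that of Adcy6. In the white tissues it was Adcy5, at 80.1 ± 15.8 in iWAT and 76.3 ± 29.3 in eWAT, again overlapping Adcy6. Among the 7 cyclases described here, those below in iBAT were Adcy4 at 11.2, Adcy9 at 6.38, Adcy5 at 4.56 and Adcy10 at 1.81, each overlapping the next in range, and then Adcy7 at 0.935, which overlapped Adcy5 but not its neighbour Adcy10. For iWAT, Adcy4 at 26.4, Adcy7 at 20.2 and Adcy3 at 19.0 had overlapping neighbours, and below them came Adcy9 at 4.85, which overlapped Adcy7 but not its neighbour Adcy3, and Adcy10 at 0.978, which did not overlap Adcy9. In eWAT the order among these 7 was Adcy4 at 27.7, Adcy7 at 12.5, Adcy3 at 11.5, Adcy9 at 4.13 and Adcy10 at 0.345, in which Adcy4 overlapped Adcy7 and Adcy7 overlapped Adcy3, as did Adcy3 with Adcy9. Without the 4 libraries set apart by their markers, Adcy7 stood at 5.50 ± 0.467 (SD, n = 3) in iWAT and 9.45 ± 3.26 (SD, n = 5) in eWAT, below Adcy3 at 19.0 and 12.6, and its iWAT range no longer overlapped that of Adcy3. These levels are relative to all transcripts of a library, and transcripts of the mitochondrial genome took 22.9% to 27.0% of the counts in iBAT against 3.77% to 9.64% in the white tissues, so tissues are compared below by shares within a family.

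As a share of the summed per-length level of the 10 adenylyl cyclases, Adcy3 made up 34.0 ± 7.90% (SD, n = 6) in iBAT, 7.35 ± 0.466% in iWAT and 4.32 ± 1.29% in eWAT. Adcy5 made up 3.23 ± 2.56%, 31.1 ± 5.39% and 28.6 ± 9.70% in the same order. Adcy6 held 49.0%, 40.5% and 47.4%. Thus in iBAT Adcy3 and Adcy6 together, and in white fat Adcy5 and Adcy6 together, accounted for most cyclase transcripts. The Adcy3 level was 3.67 to 59.8 times the Adcy5 level in the 6 iBAT libraries, whereas Adcy5 was 3.37 to 5.04 times Adcy3 in iWAT and 2.98 to 11.1 times in eWAT. The direction of this ratio was therefore the same in every library of a tissue. The order of the summed cyclase levels turned with the scaling. As TMM-scaled CPM per kilobase the sum was 115 ± 21.3 in brown fat, and 81.1 ± 11.7 and 74.5 ± 9.61 in iWAT and eWAT, but in the TPM-like units it was 152 ± 19.5, 258 ± 27.9 and 264 ± 27.9.

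**Figure D3:**
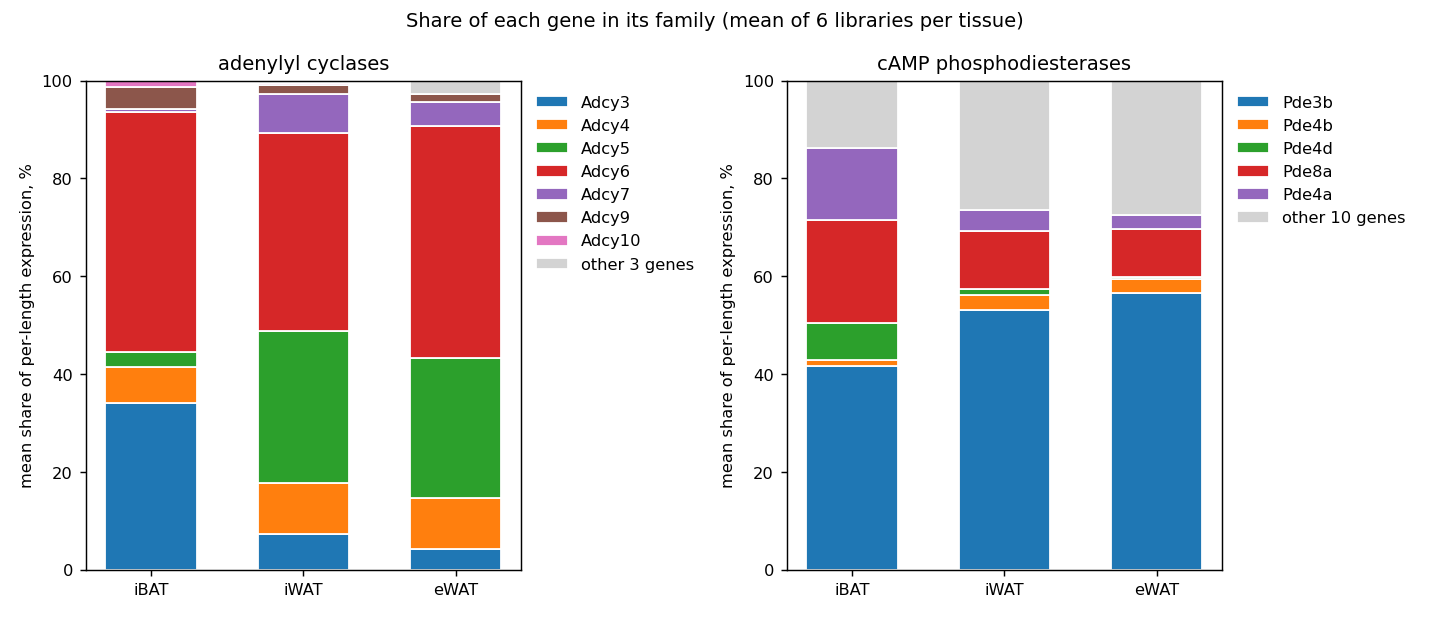
Mean share (percent, 6 libraries per tissue) of each gene in the summed per-length level of the 10 adenylyl cyclases (left) and of the 15 cAMP-hydrolysing phosphodiesterases counted (right). Adcy3 takes 34.0% of the cyclases in iBAT, Adcy5 takes 31.1% in iWAT and 28.6% in eWAT, and Pde3b is the leading phosphodiesterase in every tissue.

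Among 15 cAMP-hydrolysing phosphodiesterases Pde3b had the largest share in each tissue, 41.6 ± 3.26% (SD, n = 6) in iBAT, 53.2 ± 8.97% in iWAT and 56.6 ± 10.4% in eWAT. Pde8a came next in each tissue, at 21.1%, 11.9% and 9.97% in the same order, and Pde4a held 14.6% in iBAT. Pde4d held 7.59 ± 1.53% in iBAT, 1.12 ± 0.171% in iWAT and 0.311 ± 0.152% in eWAT, and Pde4b held 1.26%, 3.06% and 2.84%. The Pde4d level was 3.73 to 17.9 times that of Pde4b in iBAT and 0.0656 to 0.336 times that of Pde4b in eWAT, while in iWAT the ratio lay on both sides of equality, from 0.131 to 1.15. These shares depend on the length assigned to a gene. With the longest transcript in place of all exons, Pde4d held 14.4%, 2.29% and 0.637%. Pde8a then held 15.0%, 9.04% and 7.69%, and no longer came next after Pde3b in iBAT and eWAT. The summed level of the phosphodiesterases likewise turned, from 99.8 ± 8.19 TMM-scaled CPM per kilobase in iBAT, 66.7 ± 12.7 in iWAT and 64.9 ± 5.07 in eWAT to 132 ± 9.91, 211 ± 26.4 and 231 ± 13.0 in the TPM-like units.

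The remaining genes of the pathway were taken from lists of other cyclases, other cAMP-hydrolysing phosphodiesterases, receptors and G proteins, effectors and transcription factors. Their counts are with TMM. Over all 18728 tested genes 24.0% were called higher and 30.3% lower in iBAT than in iWAT, and 24.4% and 30.2% than in eWAT. Between the white tissues 5.70% were higher in iWAT and 4.50% lower. Called in either direction were 54.3%, 54.6% and 10.2% in the 3 comparisons. These shares were 55.6%, 55.7% and 9.25% with the mouse as a block, and 45.3%, 57.1% and 10.2% of 20162 genes without the 4 libraries. No list was tested against them. With library totals the balance moved towards lower in iBAT, with exceptions. The inhibitory list against iWAT stayed at 1 higher and 7 lower genes, and the other cyclases against eWAT stayed at 0 and 1. Against iWAT the other cyclases went from 0 and 1 to 0 and 2. Against iWAT the counts of higher and lower genes became 2 and 11 for the stimulatory list, 3 and 12 for the effectors and 1 and 6 for the transcription factors. There 1438 of all 18728 tested genes were called higher and 12804 lower. Against eWAT the counts became 2 and 10 for the stimulatory list, 3 and 7 for the inhibitory list, 4 and 12 for the effectors and 1 and 6 for the transcription factors. There 1579 of all tested genes were higher and 13159 lower. The lists thus moved in the direction of the whole table. Of the 12 other phosphodiesterases counted, 6 were higher and 3 lower in iBAT than in iWAT, 5 were higher and 4 lower than in eWAT, and 3 were higher and 0 lower in iWAT than in eWAT. With library totals the balance between brown and white turned, to 2 higher and 5 lower against iWAT, where the median log2 difference went from 0.19 to −0.60, and to 3 higher and 5 lower against eWAT. With the mouse as a block 7 were higher and 3 lower than in eWAT, as Pde1c and Pde3a gained the call and Pde8b lost it, and 2 were higher in iWAT than in eWAT. Leaving out the 4 libraries gave 6 and 4, 6 and 4, and 4 and 0. Pde4a, another PDE4 gene, was at 90.4 to 134 CPM in iBAT, 14.4 to 28.6 CPM in iWAT and 7.58 to 17.2 CPM in eWAT (log2 2.41 and 3.005 for iBAT against iWAT and eWAT, adjusted p = 2.66e-08 and 2.08e-09 in edgeR). Pde7b followed the order of Pde4d, with log2 1.18 and 3.07 in iBAT and 1.89 for iWAT against eWAT, of which the first was lost with library totals (0.36, adjusted p = 0.330). Pde11a and Pde7a were lower in iBAT, by log2 −3.30 and −1.46 against iWAT and −3.70 and −1.01 against eWAT. Pde1c passed only between the white tissues (log2 1.85, adjusted p = 0.0445 in edgeR, 0.0655 with library totals and 0.0645 with the mouse as a block), at no more than 1.85 CPM in any library, and without the 4 libraries it was also higher in iBAT than in eWAT (log2 2.04, adjusted p = 0.000586). Pde2a stands under 2 gene identifiers in the table and was not counted.

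The 3 other cyclases were scarce. Adcy1 was at most 5.14 CPM and was lower in iBAT than in iWAT (log2 −1.88, adjusted p = 0.0259 in edgeR), which did not hold without the 4 libraries (adjusted p = 0.142). Adcy2 was at most 2.55 CPM and passed no test. Adcy8 was at 35.0 CPM in eWAT wt 1 and 41.2 CPM in eWAT ko 3 and at no more than 0.503 CPM elsewhere. Its calls of log2 −7.45 for iBAT against eWAT and −5.48 for iWAT against eWAT rest on these libraries, and the second was lost with the mouse as a block (log2 −2.45, adjusted p = 0.4004). These libraries also held the highest epididymis marker sums of eWAT, 16.3 and 4819 CPM, and with the 4 libraries and eWAT wt 1 left out it had too few counts to be tested.

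Of 16 stimulatory receptors and G proteins, 2 were higher and 7 lower in iBAT than in iWAT (24.0% and 30.3% of all tested genes). Against eWAT 4 were higher and 8 lower in iBAT (24.4% and 30.2%). Between the white tissues 1 was higher and 2 lower in iWAT than in eWAT (5.70% and 4.50%). When the 4 libraries were left out these counts were 2 and 9, 3 and 8, and 2 and 1. Adrb1, the β1-adrenergic receptor, was 2.69 on the log2 scale above each white tissue in iBAT (adjusted p = 1.90e-06 and 1.52e-06 in edgeR). Adrb3, the β3-adrenergic receptor, was at 322 to 538 CPM in iBAT and 519 to 1379 CPM in eWAT (log2 −1.20, adjusted p = 0.00113). Its difference from iWAT was −0.35 and did not pass (adjusted p = 0.280), but it was −1.12 with library totals (adjusted p = 0.000270), and iWAT lay below eWAT by log2 −0.85 (adjusted p = 0.0496). With the 4 libraries left out Adrb3 was lower in iBAT than in iWAT (log2 −0.71, adjusted p = 0.0126), and the call between the white tissues was lost (log2 −0.63, adjusted p = 0.0921), as it was when the mouse was a block (adjusted p = 0.113). Also lower in iBAT were Tshr, the thyrotropin receptor, by log2 −2.28 and −3.04 against iWAT and eWAT, Adcyap1r1, the receptor for PACAP, by −1.16 and −2.97, and Gcgr, the glucagon receptor, by −2.69 and −2.54. Vipr1 had the largest values, −4.75 and −5.58, but stood at 58.6 CPM in eWAT ko 3, and without the 4 libraries the values were −2.68 and −2.66. Gnal, which encodes a stimulatory α subunit, was higher in iWAT than in both other tissues, by log2 2.72 against eWAT, at no more than 31.7 CPM. Gnas, which encodes the main stimulatory α subunit and was picked out after its values were seen, was at 3160 to 4355 CPM in iBAT, 460.1 to 830.1 CPM in iWAT and 599 to 687 CPM in eWAT. It was higher in iBAT by log2 2.42 and 2.55 (adjusted p = 4.65e-09 and 1.41e-09 in edgeR).

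Of 10 inhibitory receptors and G proteins, 1 was higher and 7 lower in iBAT than in iWAT (24.0% and 30.3% of all tested genes). Against eWAT 3 were higher and 4 lower in iBAT (24.4% and 30.2%). Adra2a, the α2A-adrenergic receptor, was at 0.0644 to 0.313 CPM in iBAT against 2.11 to 6.86 CPM in iWAT and 1.67 to 4.49 CPM in eWAT (log2 −4.58 and −3.99). Gnai1, an inhibitory α subunit, was lower in iBAT by log2 −1.60 and −2.20, whereas Gnao1 was higher by 2.63 and 1.64. Hcar2, a receptor for hydroxycarboxylic acids that restrains lipolysis, was lower in iBAT than in iWAT (log2 −2.14), and Ptger3, a prostaglandin E receptor, was higher in iBAT than in eWAT (log2 1.91). Between the white tissues 1 gene was higher in iWAT, Hcar2 (log2 1.72, adjusted p = 0.0188 in edgeR), and 0 were lower. Without the 4 libraries 4 were higher and 1 was lower, without eWAT wt 1 as well 1 was higher and 2 were lower, and without eWAT ko 2 in its place 1 was higher and 1 was lower, with Hcar2 no longer called (adjusted p = 0.0848). With the mouse as a block Adora1 was also higher in iBAT than in iWAT, Npy1r lower in iBAT than in eWAT, and Gnao1 lower in iWAT than in eWAT (log2 −1.12, adjusted p = 0.00963).

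Of 17 cAMP effectors and anchors, 5 were higher and 6 lower in iBAT than in iWAT (24.0% and 30.3% of all tested genes). Against eWAT 4 were higher and 6 lower in iBAT (24.4% and 30.2%), and 0 were called between the white tissues. Akap1, which anchors protein kinase A at mitochondria, was at 446 to 561 CPM in iBAT, 39.2 to 127 CPM in iWAT and 70.2 to 84.2 CPM in eWAT (log2 2.49 and 2.75). The protein kinase A inhibitors Pkia and Pkib were lower in iBAT, by log2 −2.32 and −2.83 against iWAT and −2.50 and −2.36 against eWAT. The Pkia and Pkib values without the 4 libraries were −1.77 and −1.62 against iWAT and −2.48 and −1.74 against eWAT, and 3 of the effectors and anchors were higher and 1 was lower in iWAT than in eWAT, with Akap1 among the higher (log2 0.61, adjusted p = 0.00158). With the mouse as a block 6 were higher and 6 lower in iBAT than in iWAT, 5 higher and 7 lower than in eWAT, and Akap12 was lower in iWAT than in eWAT (log2 −0.84, adjusted p = 0.00581). Of 7 transcription factors and coactivators of the pathway, 2 were higher and 3 lower in iBAT than in iWAT, 2 were higher and 2 lower than in eWAT, and 0 were called between the white tissues. Atf2 (log2 1.23 and 1.20) and Crem (0.45 and 0.50) were higher in iBAT, and Crtc1 (−0.70 and −0.83) and Crtc3 (−0.45 and −0.49), which encode CREB coactivators, were lower. Without the 4 libraries 1 was higher and 2 were lower in iBAT than in iWAT, and Crem no longer passed there (log2 0.35, adjusted p = 0.103). With library totals Crem turned to −0.36 and −0.38 and was called lower in iBAT (adjusted p = 0.00929 and 0.00664).

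The 6 iBAT libraries differed among themselves in 4 of the 10 genes by the replicate number of the mouse. For Adcy3, mice numbered 1 were at 331 (wt) and 391 CPM (ko), mice numbered 2 at 265 and 247 CPM and mice numbered 3 at 143 and 143 CPM. For Adcy5, the pairs were at 7.06 and 7.52 CPM, 22.4 and 21.8 CPM, and 44.9 and 38.1 CPM. For Adcy9 they were at 15.0 and 11.4 CPM, 24.7 and 19.2 CPM, and 27.99 and 47.2 CPM. The mice numbered 1 thus had the most Adcy3 and the least Adcy5 and Adcy9. In Adcy3, Adcy4, Adcy5 and Adcy9 each wt and ko pair of the same number lay apart from the other pairs. This held for 4 of the 10 genes in iBAT, where it held for 15.7% of all tested genes, and for 0 in iWAT and 0 in eWAT, where it held for 7.51% and 9.25%. Ucp1 was at 6665 and 7994 CPM in the mice numbered 1, 5344 and 5660 CPM in those numbered 2, and 3978 and 3422 CPM in those numbered 3, again with the pairs apart. So were the pairs of Elovl3, a fatty acid elongase of brown fat, at 252 to 261 CPM, 91.6 to 151 CPM and 35.5 to 46.8 CPM. For the other brown adipocyte markers, Cidea, Ppara and Dio2, not all pairs lay apart. For Ppara the pairs numbered 2 and 3 overlapped, at 53.1 to 90.4 CPM and 42.0 to 90.7 CPM, below the pair numbered 1 (103 to 173 CPM). Cidea was at 2281 to 2566 CPM, 2459 to 3081 CPM and 2237 to 2294 CPM. Dio2, the deiodinase that activates thyroid hormone, was at 237 and 413 CPM, 122 and 265 CPM, and 57.5 and 46.5 CPM in the same pairs. Its pairs numbered 1 and 2 overlapped, and the pair numbered 3 lay below both. In the labels the animal identifiers of the mice numbered 2 carry another prefix than those of the mice numbered 1 and 3, and its meaning is not given. The part of the numbers in these values was not tested.

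**Figure D4:**
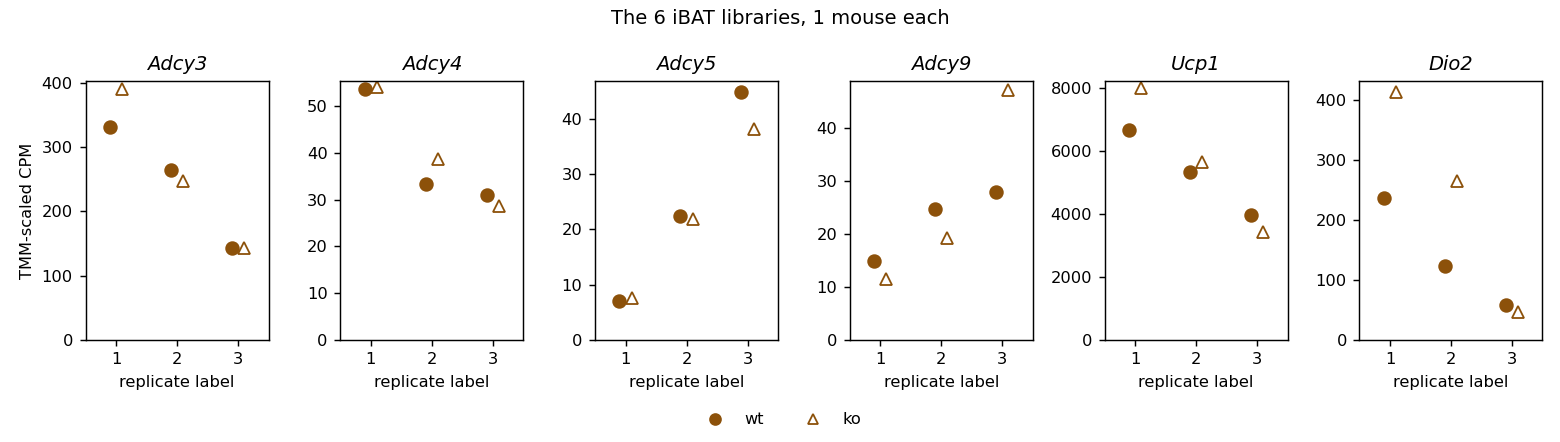
TMM-scaled CPM (linear axes from 0, own scale for each gene) of Adcy3, Adcy4, Adcy5, Adcy9, Ucp1 and Dio2 in the 6 iBAT libraries, by the replicate number in the labels. Filled circles are wt and open triangles ko mice, 1 library each. For Adcy3, Adcy4, Adcy5, Adcy9 and Ucp1 the pairs of the same number lie apart, for example at 7.06 and 7.52 CPM of Adcy5 in the mice numbered 1. For Dio2 the pairs numbered 1 and 2 overlap, and the pair numbered 3 lies below both.

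The second question was whether loss of Gm15551 altered these genes. The targeted transcript itself was lower in ko libraries (log2 −7.76 ± 0.53 SE across tissues, adjusted p = 9.08e-07 in edgeR). That fit takes the 18 libraries as independent although they come from 6 mice. With counts summed per mouse (3 against 3) the log2 difference was −7.75 ± 0.87 SE and edgeR did not call it (adjusted p = 0.9997, unadjusted p = 9.93e-05). In edgeR's fit over libraries it was the only gene called across tissues (0.00534% of the 18728 tested) and in eWAT (0.00534%), and 0% of genes were called in iBAT, in iWAT or for an interaction of genotype and tissue. Gm15551 itself did not pass in iBAT (log2 −9.16, adjusted p = 0.191) or in iWAT (log2 −7.58, adjusted p = 0.0551), so these tests missed a loss of that size. DESeq2 called 4 genes across tissues, 13 in iBAT, 4 in iWAT, 13 in eWAT and 0 for the interaction, with Gm15551 among them in each tissue and across tissues. In edgeR 0 of the 10 genes were called in any of these 5 tests. At an unadjusted p under 0.05, edgeR picked 0 of the 10 in each test, and DESeq2 picked Adcy9 in iWAT. Over all tested genes such a p was reached in edgeR by 411 across tissues, 238 in iBAT, 415 in iWAT, 814 in eWAT and 264 for the interaction, and in DESeq2 by 476, 230, 510, 838 and 314. DESeq2 called 0 of the 10 in each test after adjustment. Across tissues the log2 differences between ko and wt ran from −0.18 for Pde4b (95% confidence interval −0.83 to 0.47) to 0.28 for Adcy9 (−0.31 to 0.87). The narrowest interval was that of Adcy6, −0.27 to 0.27, and the widest that of Adcy7, −0.78 to 1.06. With counts summed per mouse these intervals were −0.41 to 0.41 and −1.47 to 1.32. Their median was 0.02, beside 0.00 over all tested genes.

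Within tissues the ko and wt ranges lay apart for 1 of the 10 genes in iWAT and for 0 in iBAT and 0 in eWAT, where in iBAT, iWAT and eWAT 4.94%, 4.92% and 5.25% of all tested genes had ranges apart. The gene was Adcy9. In iWAT it was at 5.39, 6.98 and 3.59 CPM in the wt mice and at 9.82, 13.9 and 7.23 CPM in the ko mice. The log2 difference was 0.95 ± 0.45 SE (95% confidence interval −0.01 to 1.92, unadjusted p = 0.0530 and adjusted p = 1 in edgeR). Over 15 alternative settings it lay between 0.68 and 1.20 and was called in 0 of them, with an unadjusted p under 0.05 in 8 of the 15 (lowest 0.0115). Of these libraries, ko 1 held skeletal muscle markers and ko 2 lymphocyte markers, and wt 3, with the lowest Adcy9 level, held the most lymphocyte markers. The part of these in the Adcy9 values was not tested. In eWAT the interval of Adcy7, which was highest in ko 3, reached from −0.93 to 2.33. In iBAT Pde4d was at 91.4, 82.0 and 65.3 CPM in wt and at 139, 79.9 and 92.8 CPM in ko mice (log2 0.38 ± 0.34 SE, adjusted p = 1), and the groups overlapped.

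**Figure D5:**
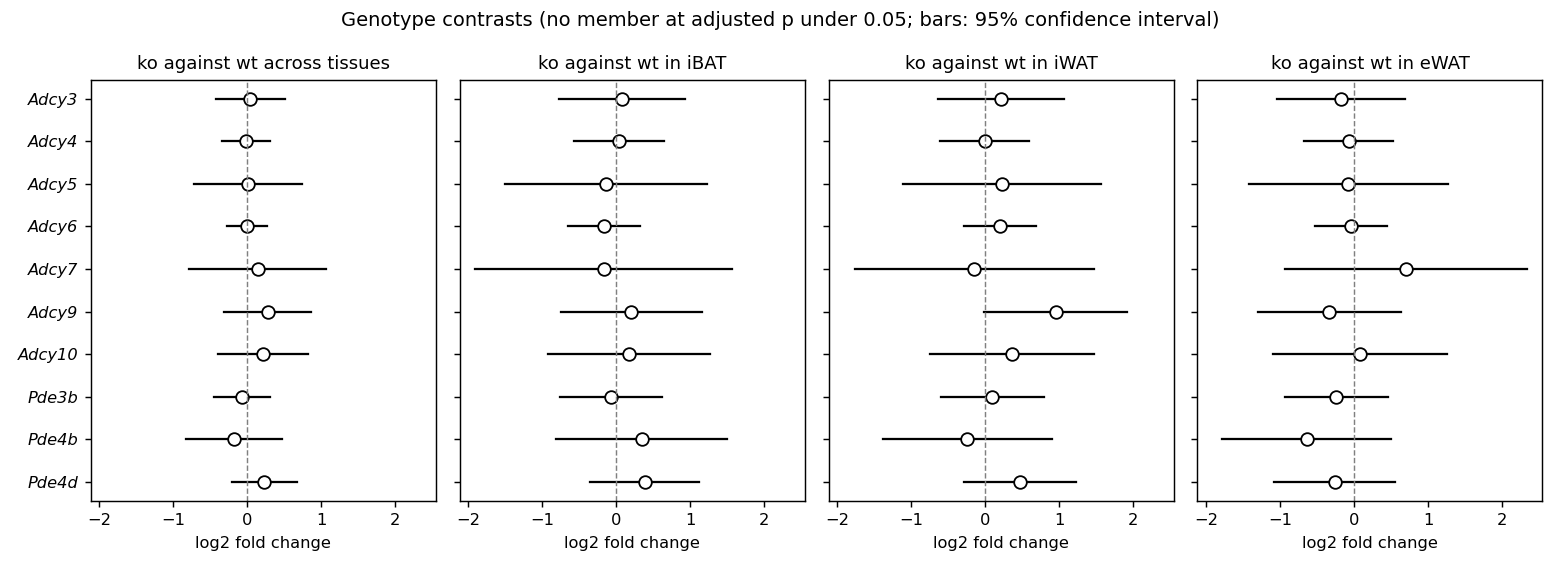
Log2 fold changes (x axis) of the 10 genes in ko against wt mice across tissues (9 against 9 libraries) and within each tissue (3 against 3), from edgeR. Bars are 95% confidence intervals. Every interval includes 0, the nearest to leaving it being Adcy9 in iWAT with −0.01 to 1.92.

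To describe which transcripts ran in parallel with these genes, log2 levels were correlated over the 18 libraries, whose points share tissues, mice and depth. The Pearson correlations are given without a test. Adcy3 was most like Ndrg3 (r = 0.988), Pfkp (0.984) and Eno1 (0.983). Pde4d was most like Eno1 (0.983), S100b (0.982) and Entpd5 (0.979). Eno1 thus stood among the 3 closest genes of both. Adcy5 was most like Cfd (0.981), the adipsin gene, and Adcy7 most like Tnfrsf1b (0.979), a tumour necrosis factor receptor gene. Adcy10 was most like Tgoln1 (0.973), Adcy6 most like Ankrd40 (0.966) and Adcy9 most like Npc1 (0.942). Pde3b, which did not differ between tissues beyond its spread, was most like Lipe (0.952), the gene of hormone-sensitive lipase. The closest genes of Adcy4 (Ehbp1l1, 0.889) and Pde4b (Hhex, 0.883) were less close.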

How the data were processed

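The deposited table holds estimated counts per gene, which the authors made with salmon against GENCODE M22, alone or with RNAcentral, after quality filtering with cutadapt (NEBNext Ultra II libraries, GRCm38); the counts are whole numbers, and the strand setting is not given in the sources used here. Gene positions and exon lengths are from GENCODE M21, promoters from RefSeq GRCm38.p6. The members and the gene lists were chosen with earlier results of these data known. Columns were matched to samples by their titles. Tests were run with edgeR 4.0.16 (R 4.3.3; quasi-likelihood test, TMM, filterByExpr, 18728 genes, Benjamini-Hochberg, threshold 0.05) in an additive model of tissue and genotype over 18 libraries. Genotype within tissues and the interaction came from a model of group means. edgeR was tested on simulated data with 200 changed genes. Intervals are at 95%. A count of 0 allows up to 3 counts, or 0.0728 to 0.235 CPM. A member is always named, and a list gene is named when among the 3 largest called differences of its list, in lists of at most 4 genes, or when not tested. Gnas, Pde3a, Pde8a, Pde8b, Adora1, Npy1r and Akap12 fall outside that rule and were named after their values were seen. Mice are separate animals. Tissues of a mouse are paired by its label, whereas wt and ko libraries of the same number correlated at −0.40 to 0.46 in their deviations and were not treated as pairs. Alternatives were DESeq2 1.42.0, its size factors, other count filters, no mitochondrial genes, mouse or number blocks, wt or ko libraries alone, sums per mouse, and leaving out each mouse, the 4 libraries with carried-along tissue, or these and eWAT wt 1 or ko 2, the last 2 and library totals in place of TMM being chosen after seeing the data. Correlations used log2(CPM + 0.5).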

Additional observations from a re-analysis of the deposited data

Results flagged for a closer look

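In 39 sets of 6 libraries (13 cyclase and phosphodiesterase genes in 3 tissues), the library farthest from the other 5 stood apart beyond Dixon's 95% critical value in 3 sets, where chance gives about 1 in 20, or 1.95 sets. Adcy7 in eWAT was at 50.3 CPM in ko 3, with a gap of 0.688 of the whole range, and this library held the epididymis and testis markers and the lowest macrophage marker sum of eWAT (133 CPM). Pde4d in iBAT was at 139 CPM in ko 1, with a gap of 0.626, in the library that also had the highest Ucp1 level (7994 CPM). Adcy2 in eWAT was at 1.36 CPM in wt 1, with a gap of 0.650, on 31 counts. What set these libraries apart was not tested.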

How the results depend on the processing

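Of the 10 genes, 6 to 9 were called between iBAT and iWAT and 5 to 9 between iBAT and eWAT over 18 alternatives each, while the share of all genes called ran from 24.9% with no filter on low counts to 76.0% with library totals against iWAT, and from 26.3% to 78.7% with the same settings against eWAT. The 10 genes had 0 calls in every alternative of the genotype comparisons and the interaction (15 to 17 each). Between iWAT and eWAT the number fell from 3 to 0 with wild type libraries only and to 1 with knockout libraries only. There the number over all genes fell from 1911 of 18728 to 247 of 17450 and 123 of 17494. Of the 10 genes 1 to 2 were called when a mouse, or the 4 libraries with carried-along tissue with or without eWAT wt 1 or ko 2, was left out. In these last fits 3.83% to 10.2% of all tested genes were called, against 10.2% with all 18 libraries. The Adcy3 call was lost in 12 of 18 alternatives, those just named and the one with no filter on low counts (adjusted p = 0.0629 in edgeR). The Adcy10 call was lost in 3 of 17, with either genotype alone and without ko 2, and Adcy10 was not tested with at least 10 counts in every library. With wild type libraries only, Adcy6 (log2 0.74, adjusted p = 0.0522) and Adcy7 (−1.81, adjusted p = 0.114) lost the call in edgeR against eWAT, and with knockout libraries only Adcy9 lost it against iWAT (1.34, adjusted p = 0.0754). These fits use fewer libraries. The replicate block for the mouse added Pde4b against eWAT and changed no other call of the 10 genes among the tissue comparisons, whereas in the pathway lists it changed 13 calls. In these lists library totals changed 42 calls. Leaving out the 4 libraries changed 30, and 29 or 31 with eWAT wt 1 or ko 2 left out as well. Depth limits Adcy10 in eWAT most, at 6 to 31 counts per library. In units per length, 9 of 30 mean levels moved by more than 1 SD with the longest transcript as length.

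With library totals in place of TMM, which moved the median of all genes from −0.14 to −0.95 against iWAT and from −0.17 to −1.04 against eWAT, iBAT turned lower in Adcy4 (−0.78 and −0.75), Adcy6 (−0.0354 and −0.20) and Pde3b (−0.58 and −0.69), and Adcy5 was −0.00292 for ko against wt across tissues. Adcy6 lost its calls there, and Adcy4, Pde3b and Pde4b gained them. The other signs that turned were of differences that were not called, and the cause was not tested. Leaving out the 4 libraries and eWAT ko 2 gave −0.0581 for Pde3b between iBAT and iWAT, and −0.51 for Adcy7 and −0.0336 for Adcy9 between iWAT and eWAT, where leaving out single mice reached 0.57 for Adcy9. For iBAT against iWAT, Adcy4 was −0.0558 with at least 10 counts in every library, −0.00265 with the replicate block, −0.0548 without the 4 libraries and −0.0565 to 0.13 with mice left out, and Pde3b was −0.0594 without the 4 libraries and −0.0505 to 0.27 with mice left out. For iBAT against eWAT, Adcy4 was −0.0110 without the 4 libraries and −0.0515 to 0.22 with mice left out, and Pde3b −0.0127 to 0.24. For iWAT against eWAT, mice left out gave −0.0533 to 0.19 for Adcy4, −0.16 to 0.0362 for Adcy6, −0.33 to 1.28 for Adcy7, −0.18 to 0.20 for Pde3b and −0.56 to 0.0774 for Pde4b. Knockout libraries only gave 0.0334 for Adcy6, 0.14 for Pde3b and 0.18 for Pde4b, wild type libraries only gave −0.32 for Adcy9, and leaving out the 4 libraries gave 0.0102 for Adcy6, −0.49 for Adcy7 and 0.11 for Pde3b. For ko against wt across tissues, mice left out gave −0.24 to 0.24 for Adcy3, −0.17 to 0.13 for Adcy4, −0.23 to 0.20 for Adcy5, −0.14 to 0.0940 for Adcy6, −0.11 to 0.54 for Adcy7, −0.10 to 0.55 for Adcy10, −0.49 to 0.21 for Pde4b and −0.0154 to 0.43 for Pde4d. Counts summed per mouse gave −0.0731 for Adcy3, 0.00219 for Adcy4, 0.00323 for Adcy6 and −0.0744 for Adcy7. Leaving out the 4 libraries gave 0.0907 for Adcy4, −0.0399 for Adcy7, −0.00276 for Adcy10 and 0.12 for Pde4b. Adcy6 was 0.00882 with size factors of DESeq2, 0.00885 with DESeq2, 2.32e-05 with no filter on low counts, 0.00212 with at least 10 counts in every library and 0.00991 with the replicate block for the number.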
